A study of Mus musculus with 6 samples.

Results

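Microglia, the resident macrophages of the brain, were examined through 9 genes, of which 6 mark the identity of these cells (Cx3cr1, P2ry12, Tmem119, Csf1r, Aif1 and Trem2) and 3 encode the chains of complement component C1q (C1qa, C1qb and C1qc). They were chosen by gene symbol in the GENCODE M21 annotation, and all 9 of 9 were found among the 55450 genes of the count tables. The RNA came from whole mouse brain, with 3 libraries from wild-type animals (WT) and 3 from animals labelled as TRMT1L knockouts (KO). TRMT1L is a relative of the tRNA methyltransferase TRMT1. The labels describe neither the knockout allele nor the strain, age or sex. They call the libraries biological triplicates without naming the animals, so the p-values measure the spread between these libraries.

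Microglia enter the brain early in development and are kept alive by signals through the receptor CSF1R. They survey the tissue with fine processes, sense nucleotides through P2RY12 and neuronal fractalkine through CX3CR1, and take up debris with the help of TREM2. In the brain they are the main source of C1q, which starts the classical complement cascade and can tag synapses for removal. Microglia that leave the surveying state, as around plaques or during demyelination, are known to lower P2ry12, Tmem119 and Cx3cr1 and to express a second set of genes that includes Gpnmb, Itgax and Clec7a.

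Counts in genes ranged from 31201119 to 36145961 per library. Trmt1l had between 1034 and 1279 counts in the WT libraries and between 93 and 106 in the KO libraries, so all 6 libraries matched their labels. Of 21237 genes tested, 2 (0.00942%) passed an adjusted threshold of 0.05 with edgeR, and 0 of the 9 genes were among them. KO library 3 stood apart from the other 5 in genes of reactive glia, such as Gpnmb, Clec7a, Itgax, C4b and Gfap. Results that rest on it are therefore given with and without it.

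All 9 genes were detected in every library and passed the filter on low counts. Levels were compared between genes as CPM (counts scaled to a common library size) per kilobase of the principal transcript. In WT they ran from C1qb at 24.1 ± 3.51, through C1qa at 18.4 ± 2.06, C1qc at 16.4 ± 2.22 and Csf1r at 15.9 ± 2.04, to P2ry12 at 11.5 ± 0.247 (SD, n = 3). By this length the C1q chains had the highest means of the 9 genes, and the steps from C1qa to C1qc and from C1qc to Csf1r were within their SD. Cx3cr1 followed at 7.80 ± 0.856, Tmem119 at 4.46 ± 0.972, Aif1 at 2.90 ± 0.290 and Trem2 at 2.60 ± 0.513 CPM per kilobase. The order was the same in KO except for Aif1 (2.98 ± 0.162) and Trem2 (3.25 ± 0.785), which exchanged places within their spread. Per kilobase of all annotated exons, which count extended transcripts in full, C1qc stood at 10.2 CPM per kilobase in WT, below Csf1r at 13 and P2ry12 at 10.6, and Trem2 at 0.573.

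The nucleotide receptor gene P2ry12 had the smallest p-value of the 9 genes and was alone among them in having groups that did not overlap. In the order of the library numbers, its level read 26.2, 27.0 and 27.4 CPM in WT, against 22.8, 19.0 and 21.9 CPM in KO. All KO libraries lay below all WT libraries, and the spread was wider within KO than within WT. The WT mean of 26.9 ± 0.579 CPM stood against a KO mean of 21.2 ± 2.00 CPM (SD, n = 3), or 79.0% of WT. On the log2 scale the difference, KO minus WT, was -0.34 (SE 0.0741, 95% interval -0.50 to -0.18). Its unadjusted p-value of 0.000717 ranked 24 among the 21237 genes, and the edgeR adjusted p-value was 0.550, which did not pass the threshold. With no filter on low counts the adjusted p-value was 0.00407, and in the DESeq2 Wald test it was 0.0493, so the call depended on the method. Over all alternatives the adjusted p-value ranged from 0.00407 to 0.861.

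The size of the P2ry12 difference depended little on any 1 library. With each library left out in turn the log2 fold change lay between -0.39 and -0.27, and without KO library 3 it was -0.36. In whole brain, fewer cells of a type and less RNA of a gene in each cell cannot be told apart. Set against the geometric mean of the other 8 genes in the same library, P2ry12 counts were 2.06, 1.63 and 1.97 in WT and 1.62, 1.40 and 1.29 in KO. The 2 groups did not overlap in this ratio, although WT library 2 and KO library 1 differed by only the last digit. The ratio was formed after the values were seen and has no test.

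P2ry12 lies on the minus strand of chromosome 3, from 59216272 to 59262871 (GRCm38), inside Med12l, a gene of the plus strand that encodes a subunit of the Mediator complex. Exons of both genes share 9 bp, and the strand-specific counts keep their reads apart. Med12l differed by -0.07 on the log2 scale (SE 0.0513, edgeR adjusted p = 0.776). P2ry13, a related nucleotide receptor gene that lies beside P2ry12 and is also expressed by microglia, had 7.75, 8.90 and 7.81 CPM in WT and 8.20, 5.85 and 8.69 CPM in KO. Its groups overlapped, differing in the mean by -0.10 on the log2 scale (SE 0.140, edgeR adjusted p = 0.881).

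Cx3cr1, which encodes the fractalkine receptor, had 30.9, 38.6 and 35.7 CPM in WT and 30.8, 26.1 and 38.7 CPM in KO. The highest and the lowest values both came from KO libraries, so the groups overlapped throughout. The log2 fold change was -0.14 (95% interval -0.41 to 0.13, edgeR adjusted p = 0.808). It depended on single KO libraries, at -0.30 without KO library 3 (edgeR adjusted p = 0.570) and -0.012 without KO library 2. Its ligand gene Cx3cl1, made by neurons, averaged 326 ± 20.2 CPM (WT) and 347 ± 20.0 CPM (KO, SD with n = 3 each), a log2 fold change of 0.09 (edgeR adjusted p = 0.706). Cx3cr1 lies on the minus strand of chromosome 9, from 119901616 to 120069879 (GRCm38).

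Csf1r, the receptor gene on which microglial survival depends, had 66.0, 85.0 and 73.9 CPM in WT and 65.9, 70.1 and 78.0 CPM in KO. The KO values lay inside the WT range except for KO library 1, which was about level with WT library 1. The log2 fold change was -0.07 (95% interval -0.26 to 0.12, edgeR adjusted p = 0.868), and it was 0.03 without WT library 2. Csf1r lies on the plus strand of chromosome 18, from 61100598 to 61132149. Its exons overlap those of Hmgxb3 on the opposite strand by 873 bp, and between 234 and 274 reads per library were counted on that strand. The 2 ligand genes of the receptor, Csf1 and Il34, had log2 fold changes of -0.07 (SE 0.0955, edgeR adjusted p = 0.875) and 0.09 (SE 0.0666, edgeR adjusted p = 0.772).

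Tmem119, a membrane protein gene used to tell microglia from blood-derived macrophages, had 8.71, 12.5 and 8.75 CPM in WT and 9.18, 11 and 9.90 CPM in KO. WT library 2 alone exceeded every KO library. The log2 fold change was 0.01 (95% interval -0.29 to 0.31, edgeR adjusted p = 0.991). Aif1, which encodes the actin-bundling protein IBA1, stayed between 2.25 and 2.77 CPM in all 6 libraries. Its log2 fold change was 0.04 (95% interval -0.27 to 0.36, edgeR adjusted p = 0.961), on 82 to 100 counts per library. Tmem119 lies on the minus strand of chromosome 5, from 113793729 to 113800516, and Aif1 on the minus strand of chromosome 17, from 35170991 to 35176068 (GRCm38).

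Trem2, a receptor gene for lipids and lipoproteins, had 2.53, 3.48 and 2.49 CPM in WT and 3.80, 2.58 and 4.23 CPM in KO. KO libraries 1 and 3 lay above all WT libraries, while KO library 2 lay among them. The log2 fold change was 0.33 (95% interval -0.11 to 0.76, edgeR adjusted p = 0.710). It ranged from 0.18 without KO library 3 to 0.51 without KO library 2, with 82 to 153 counts per library and the widest interval of the 9 genes. Tyrobp, the adaptor through which TREM2 signals, differed by 0.07 on the log2 scale (SE 0.184, edgeR adjusted p = 0.943). Apoe, a lipoprotein bound by TREM2 and made in the brain mostly by astrocytes, had 552, 508 and 586 CPM in WT and 609, 609 and 683 CPM in KO. All KO libraries lay above all WT libraries for Apoe, by 0.21 on the log2 scale (SE 0.0594, unadjusted p = 0.00463, edgeR adjusted p = 0.576).

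The ligands, adaptors and pathway genes around these receptors were followed as a list of 17, and all were tested. None passed the adjusted threshold in edgeR, and at an unadjusted p-value under 0.05 there were 2 higher in KO (Apoe and Smad3) and 1 lower (Tgfbr1, named after its values were seen), where 4.54% and 3.38% of all genes were. Smad3, which carries TGF-beta signals to the nucleus, had 61.2, 70.4 and 65.5 CPM in WT and 68.4, 82.8 and 72.3 CPM in KO, with overlapping groups. Tgfbr1, a receptor gene of the same pathway, on which microglial identity depends, had 32.2, 38.0 and 37.2 CPM in WT and 33.4, 29.4 and 32.2 CPM in KO. The 2 TGF-beta genes thus differed in opposite directions, by 0.18 and -0.18 on the log2 scale, and the median of the list was 0.013. Smad3 differed by 0.10 without KO library 2, and 0 genes of the list were lower at that p-value without WT library 2 or 3 or KO library 2 or 3.

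**Figure D1:**
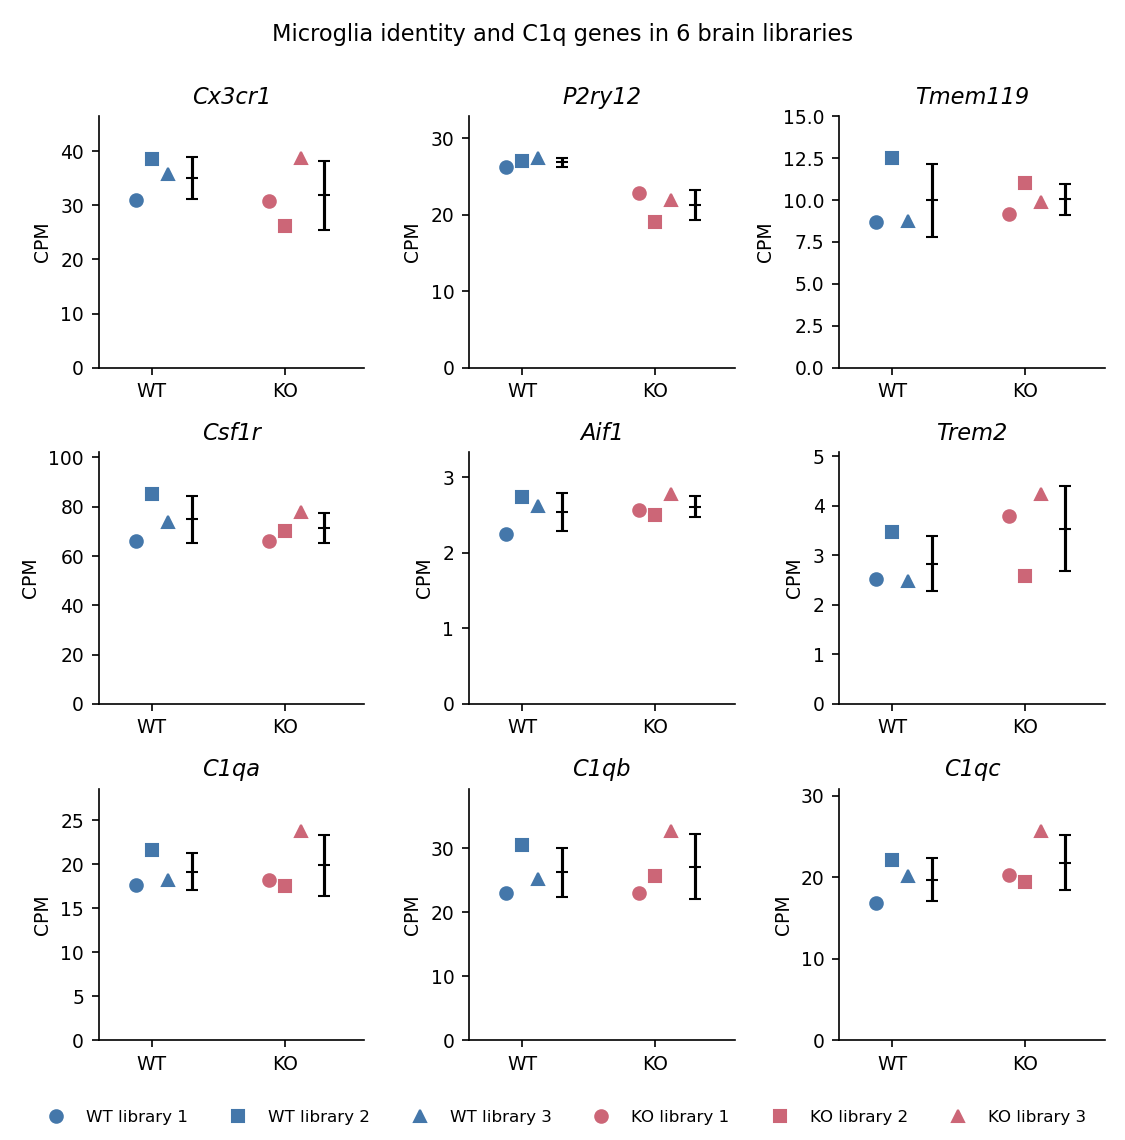
Level in CPM (vertical axes, linear, from 0) of the 9 genes in each WT (blue) and KO (red) library, with the marker giving the library number and the black bar the mean and SD of 3 libraries. P2ry12 is the gene whose KO libraries (19.0 to 22.8 CPM) all lie below its WT libraries (26.2 to 27.4 CPM), and the other 8 overlap.

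The 3 C1q genes lie side by side on the minus strand of chromosome 4 within 18675 bp. C1qb spans 136880129 to 136886187, C1qc 136889804 to 136893065 and C1qa 136895917 to 136898803 (GRCm38). RefSeq promoter windows were found for 6 of the 9 genes. Those of C1qb and C1qc are shown as neighbours whose levels varied together across libraries, and that of Trem2 as the identity gene with the largest positive difference. Each runs 5′ to 3′. Those of C1qb and Trem2 end at the base before the RefSeq start, and that of C1qc ends 151 bases further upstream, because GENCODE places those bases in an exon. Capitals mark GAGGAA or its reverse complement TTCCTC, the core letters bound by PU.1, a transcription factor of macrophages.
C1qb, chr4:136886201-136886450, minus strand: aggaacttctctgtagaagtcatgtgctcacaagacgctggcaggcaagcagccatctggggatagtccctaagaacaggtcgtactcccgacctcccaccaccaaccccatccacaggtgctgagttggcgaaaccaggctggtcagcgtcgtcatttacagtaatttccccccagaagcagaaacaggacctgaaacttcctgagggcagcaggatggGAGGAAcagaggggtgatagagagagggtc
C1qc, chr4:136893066-136893164, minus strand: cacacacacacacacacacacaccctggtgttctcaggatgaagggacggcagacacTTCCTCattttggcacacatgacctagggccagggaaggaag
Trem2, chr17:48346151-48346400, plus strand: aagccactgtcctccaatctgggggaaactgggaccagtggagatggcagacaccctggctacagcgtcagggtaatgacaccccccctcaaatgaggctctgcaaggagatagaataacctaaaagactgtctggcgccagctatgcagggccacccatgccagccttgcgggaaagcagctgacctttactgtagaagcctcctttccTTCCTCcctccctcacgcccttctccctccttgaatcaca
Over the full 250 bases before the start, 4 of the 6 windows held these letters on either strand, against 23.3% of all 32851 RefSeq windows of that length. The windows of P2ry12 and Cx3cr1 did not hold them, and all 250 bases of both lie in GENCODE exons. The window of Aif1 held them only with the 16 bases that GENCODE places in an exon. A match describes the sequence and is no evidence of binding.

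C1q levels overlapped between the 2 genotypes and were highest in KO library 3. C1qa had 17.6, 21.6 and 18.2 CPM in WT and 18.2, 17.5 and 23.8 CPM in KO. C1qb had 23.1, 30.5 and 25.2 CPM in WT and 23, 25.7 and 32.8 CPM in KO. C1qc had 16.8, 22.1 and 20.1 CPM in WT and 20.2, 19.4 and 25.7 CPM in KO. In each of the 3 genes KO library 3 was the highest and WT library 2 the second highest, and the groups overlapped. The log2 fold changes were 0.05 for C1qa (95% interval -0.20 to 0.31, edgeR adjusted p = 0.932), 0.05 for C1qb (-0.23 to 0.33, adjusted p = 0.943) and 0.15 for C1qc (-0.11 to 0.41, adjusted p = 0.781). Without KO library 3 they were -0.10, -0.11 and 0.01, so the direction for C1qa and C1qb depended on that library.

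The 3 chains, which assemble in equal numbers in the C1q protein, kept narrow proportions. There were between 1.26 and 1.47 C1qb counts and between 0.955 and 1.11 C1qc counts for each C1qa count across the 6 libraries. Corrected for the length of the principal transcripts, C1qb stood at 1.31 ± 0.0497 times C1qa in WT and 1.31 ± 0.0998 times in KO, and C1qc at 0.888 ± 0.0635 and 0.950 ± 0.0152 times (SD, n = 3). These differences between genotypes were within the spread of the libraries. Set against the summed counts of the 6 identity genes, the summed C1q counts were 0.421, 0.438 and 0.421 in WT and 0.455, 0.477 and 0.529 in KO. All KO libraries lay above all WT libraries in this ratio, which was formed after the values were seen. It carries P2ry12 and Cx3cr1 in its denominator and has no test.

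**Figure D2:**
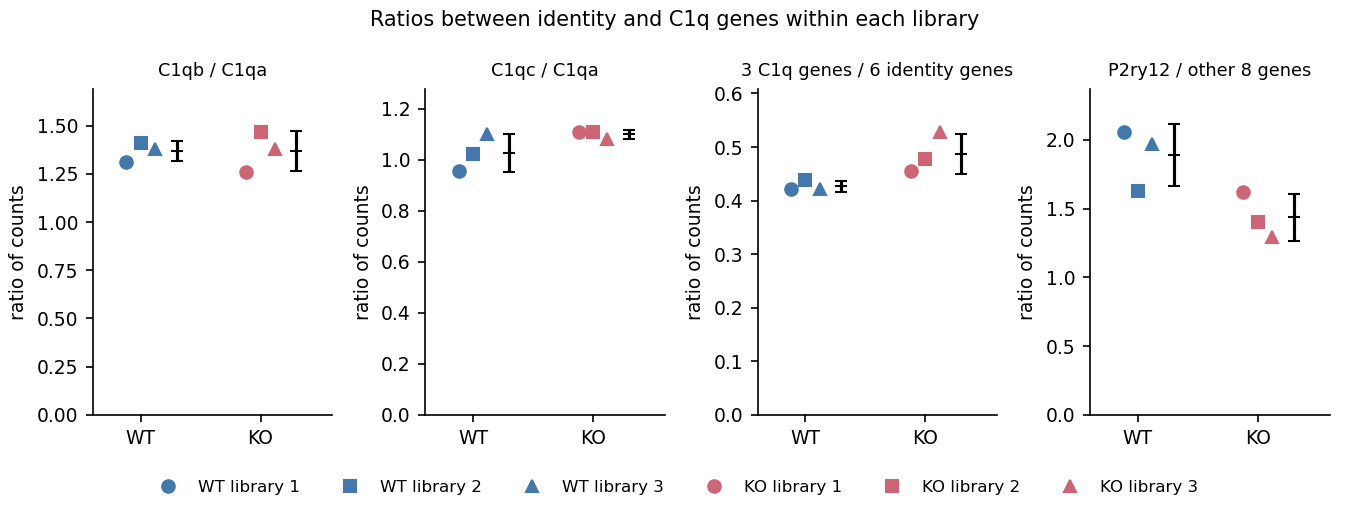
Ratios of counts (vertical axes, linear, from 0) within each WT (blue) and KO (red) library, with the black bar giving the mean and SD of 3 libraries. From left to right are C1qb and C1qc per C1qa count, the 3 C1q genes over the 6 identity genes, and P2ry12 over the geometric mean of the other 8 genes. C1q chain proportions stay within 1.26 to 1.47 and 0.955 to 1.11, while the right-hand ratio reads 1.63 to 2.06 in WT and 1.29 to 1.62 in KO.

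Read over the 9 genes, 0 passed the adjusted threshold in edgeR and 1 (P2ry12) had an unadjusted p-value under 0.05, where 7.92% of all genes tested did. KO lay wholly below WT for 1 of the 9 genes (6.97% of all genes tested) and wholly above it for 0 (7.46%), together 1 of 9 against 14.4% of all genes. The median log2 fold change of the 9 genes was 0.044 and that of all genes was 0, with 6 genes positive and 3 negative. Both figures depended on single libraries, as the median was -0.097 with 3 genes positive without KO library 3, -0.037 with 2 positive without WT library 1 and 0.149 with 7 positive without WT library 2. A second gene had an unadjusted p-value under 0.05 in 3 of the fits with 1 library left out. Without KO library 3 it was Cx3cr1 (lower, as were 773 of all 21568 genes tested at that p-value). Without KO library 2 or WT library 2 it was Trem2 (higher, as were 915 of 21775 and 750 of 21674 genes). The summed level of the 9 genes came to 194, 244 and 214 CPM in WT, by library number, and to 197, 194 and 238 CPM in KO. WT library 2 and KO library 3 carried the most, and the spread within each genotype exceeded the difference between the means. Across the 6 libraries the 28 pairs of genes without P2ry12 had a median Pearson r of 0.70 (0.14 to 0.93) on log2 CPM, and the 3 C1q pairs lay between 0.87 and 0.93. The 8 pairs with P2ry12 had a median of -0.06 and a highest value of 0.60, with Cx3cr1. These correlations describe 6 libraries that share tissue, depth and scaling.

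A list of 23 other genes enriched in microglia was examined for the same comparison. None passed the adjusted threshold, and at an unadjusted p-value under 0.05 there were 0 higher and 3 lower in KO, where 4.54% and 3.38% of all genes were. These 3 were Siglech, Gpr34 and Ly86, of which Ly86 was named after its values were seen. Siglech, a lectin gene, had 11.7, 13 and 12.5 CPM in WT and 10.2, 8.70 and 11 CPM in KO. Its log2 fold change was -0.31 (SE 0.101), with an edgeR adjusted p of 0.576. Gpr34, a receptor gene for lysophosphatidylserine, had 5.99, 7.05 and 7.08 CPM in WT and 5.61, 4.4 and 5.89 CPM in KO. Its log2 fold change was -0.34 (SE 0.132), with an edgeR adjusted p of 0.600, and -0.22 without KO library 2. Ly86, which encodes a partner of a Toll-like receptor homologue, differed by -0.39 on the log2 scale (SE 0.156, edgeR adjusted p = 0.611), or by -0.20 without WT library 2. Every KO library lay below every WT library in these 3 genes of the list (6.97% of all genes tested) and above in 1, Fcrls (7.46%).

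The rest of that list held differences of both signs. Ctss, an abundant gene for the lysosomal protease cathepsin S, differed by -0.17 on the log2 scale (SE 0.103, edgeR adjusted p = 0.713), with overlapping groups. Without KO library 3 this was -0.28, and without WT library 2 it was -0.086. Fcrls, named after its values were seen, had 8.77, 8.77 and 8.81 CPM in WT and 9.21, 9.15 and 11.4 CPM in KO, the opposite order to P2ry12 and Siglech. Its log2 difference of 0.18 was 0.064 without KO library 3. The median log2 fold change of the 23 genes was -0.021, with 9 positive and 14 negative. These counts depended on single libraries. At an unadjusted p-value under 0.05, 1 gene was lower without WT library 2, where 443 of all 21674 genes tested were. Without KO library 2 there was 1, against 659 of 21775, and without WT library 1 there were 5, against 638 of 21571. Without KO library 3, 9 were lower and 1 higher, where 773 and 954 of all 21568 genes tested were. The median ranged from -0.107 without KO library 3 to 0.049 without KO library 1. None of the 23 passed the adjusted threshold in any of these fits.

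**Figure D3:**
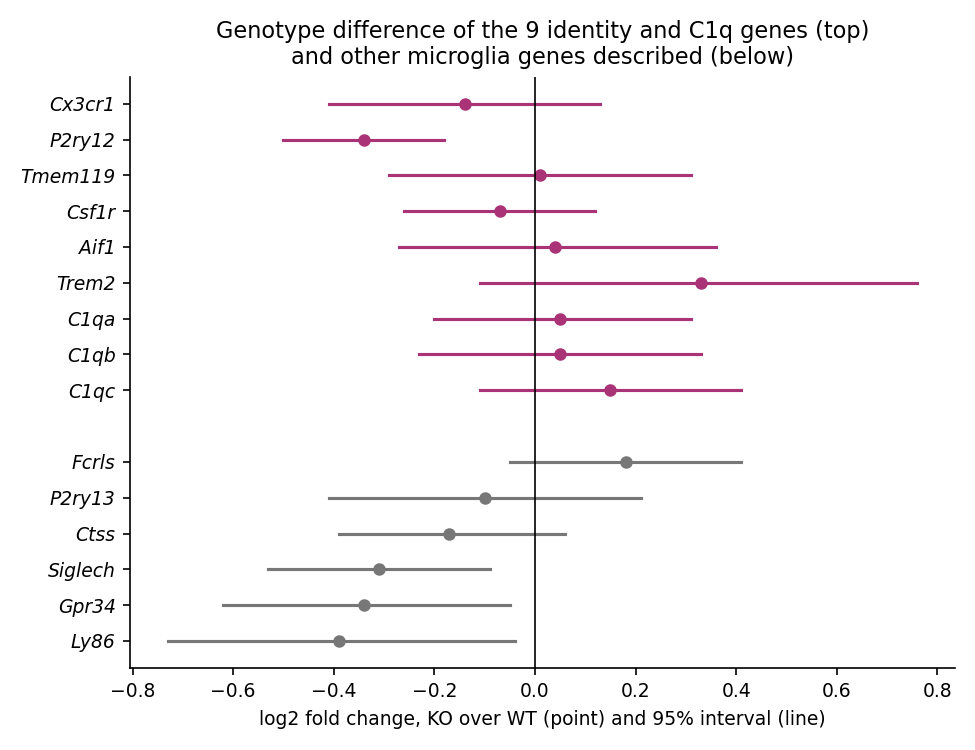
Log2 fold change, KO over WT (horizontal axis), with its 95% interval for the 9 identity and C1q genes (purple, top) and the other microglia genes described here (grey, below). The intervals of P2ry12, Siglech, Gpr34 and Ly86 lie to the left of 0, and Trem2 has the widest interval of the 9 genes (-0.11 to 0.76).

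The complement cascade beyond C1q was followed in 42 genes, of which 35 had enough counts to test. None passed the adjusted threshold, and at an unadjusted p-value under 0.05 there were 2 higher (4.54% of all genes were; Lrp1 at 0.10 and Sez6l at 0.11 on the log2 scale) and 2 lower (3.38% of all genes were), with Csmd3 at -0.10. Csmd3 was named after its values were seen. Both lower genes were regulators of complement, and 0 regulators were lower without WT library 2, WT library 3 or KO library 2. C1ra and C1s1, the proteases that bind C1q, were low. C1ra averaged 1.31 ± 0.208 CPM (WT) and 1.63 ± 0.401 CPM (KO), and C1s1 1.10 ± 0.102 and 1.37 ± 0.286 CPM (SD, n = 3 each), with overlapping groups. C3, the central component, averaged 2.28 ± 0.0465 CPM (WT) and 2.75 ± 0.559 CPM (KO), with overlapping groups. On the log2 scale C1ra differed by 0.32 and C3 by 0.27, which became 0.13 and 0.14 without KO library 3, and C1s1 by 0.32, which became 0.13 without KO library 1. C7, a component of the membrane attack complex, averaged 1.23 ± 0.0668 CPM (WT) and 0.895 ± 0.209 CPM (KO, SD with n = 3 each). Every KO library lay below every WT library for C7, at -0.46 on the log2 scale (SE 0.223, edgeR adjusted p = 0.641), or -0.28 without KO library 2. Of the 11 components tested, 9 differences were positive and 2 negative, with a median of 0.221, or 0.043 without KO library 2. C4b, cleaved by the C1 complex, was the most abundant component. It had 35.6, 55.8 and 41.8 CPM in WT and 48.0, 37.5 and 87.5 CPM in KO, a log2 fold change of 0.38 (edgeR adjusted p = 0.733) that was -0.05 without KO library 3. Its near-identical copy C4a can share reads with it, so the split between them is uncertain.

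Among receptors of complement, Itgam, a subunit of the C3 receptor that microglia use to take up tagged synapses, had 2.69, 4.05 and 3.68 CPM in WT and 2.33, 2.32 and 3.18 CPM in KO. Its groups overlapped, and its log2 fold change was -0.40 (SE 0.186, edgeR adjusted p = 0.628). The median over the 35 genes was 0.032. KO lay wholly above WT for 2 of the 35 genes (7.46% of all genes tested) and wholly below for 3 (6.97%).

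Several genes of activated microglia set KO library 3 apart from the other 5 libraries. Gpnmb, a glycoprotein gene of lipid-laden phagocytes, had 2.80, 2.65 and 2.83 CPM in WT and 4.0, 3.24 and 14.3 CPM in KO. Itgax, which encodes CD11c, had 0.467, 1.37 and 0.608 CPM in WT and 0.460, 0.238 and 3.49 CPM in KO. Clec7a, a lectin receptor gene, had 0.467, 0.797 and 0.577 CPM in WT and 0.489, 0.327 and 2.85 CPM in KO. Cst7, a cystatin gene below the filter on low counts, had 38 counts in KO library 3 and between 2 and 8 in the other libraries. KO library 3 was the highest library for 11 of the 17 tested genes of this list of 20, and for 18.7% of all genes tested. Itgax, Clec7a and Cst7 were named after their values were seen.

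None of the 17 genes passed the adjusted threshold, and 2 (Gpnmb and Lgals3) were higher in KO at an unadjusted p-value under 0.05, where 4.54% of all genes were. With limma-voom 0 were, and Gpnmb and Lgals3 differed by 1.06 and 0.87 on the log2 scale. Without KO library 3 edgeR gave 1 higher and 1 lower, where 954 and 773 of all 21568 genes tested were. In that fit 8 of the 17 log2 fold changes were positive, and the median was -0.031 in place of 0.082. Gpnmb differed by 1.38 on the log2 scale (edgeR adjusted p = 0.576), and by 0.39 without KO library 3. Lgals3, which encodes galectin-3, had 0.769, 0.734 and 0.608 CPM in WT and 1.21, 0.654 and 2.60 CPM in KO. It differed by 1.08 on the log2 scale (edgeR adjusted p = 0.596), and by 0.40 without KO library 3. The log2 difference of Itgax was 0.81 with that library and -1.19 without it, and for Clec7a 1.02 and -0.57. Gfap and Siglec1, chosen after their values were seen, were also highest in that library. Counting these, it was the highest for 3 of the 6 astrocyte markers and the lowest for the other 3, and the highest for 2 of 9 tested border macrophage genes. Gfap, the intermediate filament gene of reactive astrocytes, had 248 CPM in KO library 3 and between 115 and 140 CPM in the other 5. Siglec1, a macrophage lectin gene, had 4.01 CPM there and between 0.950 and 2.39 CPM elsewhere. Among the 9 identity and C1q genes, KO library 3 was the highest for 6, while P2ry12, at 21.9 CPM there, lay below its 3 WT libraries.

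**Figure D4:**
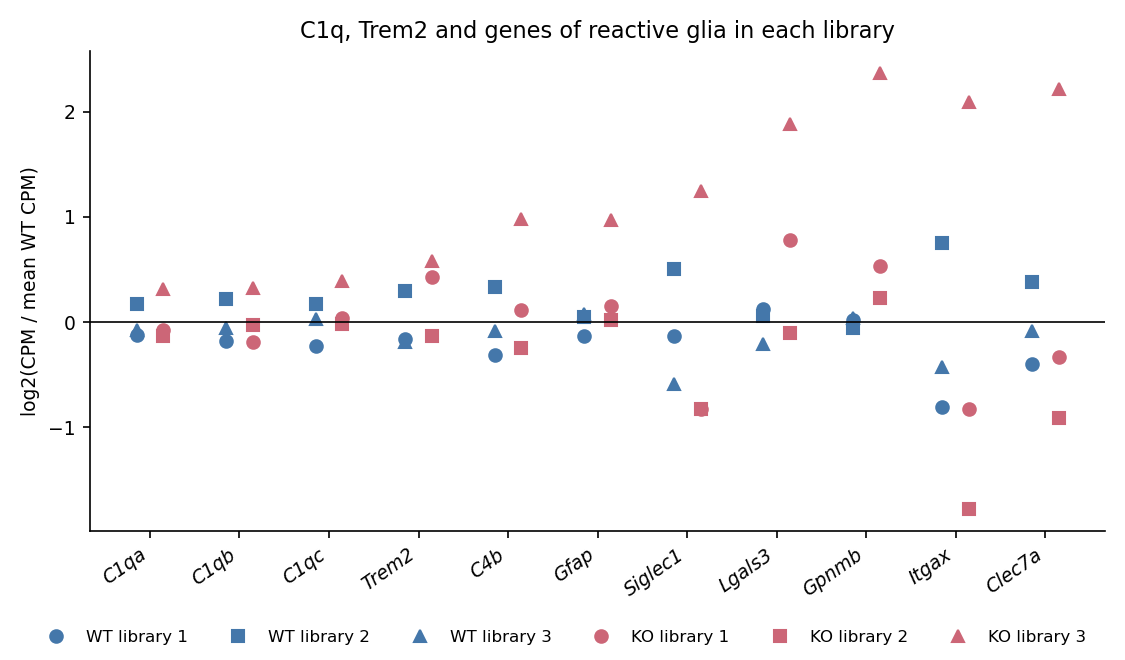
Level of C1q, Trem2 and genes of reactive glia in each WT (blue) and KO (red) library, as log2 of CPM over the mean WT CPM (vertical axis, log scale). KO library 3 (red triangles) is the highest library for each gene shown, reaching 23.8 CPM for C1qa and 14.3 CPM for Gpnmb.

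Other cells that could contribute to these genes were followed by their markers. Of 10 genes of macrophages at the brain's borders, 9 were tested, and their summed level was 38.6 to 39.5 CPM in WT and 35.7 to 41.1 CPM in KO. Mrc1, which encodes the mannose receptor, differed by -0.20 on the log2 scale (SE 0.117, edgeR adjusted p = 0.705). Lyve1 alone among the 9 had an unadjusted p-value under 0.05, where 7.92% of all genes tested did. It had 17 to 35 counts per library and differed by 0.68 on the log2 scale (SE 0.241, edgeR adjusted p = 0.579). Of 14 genes of other leukocytes, 6 were tested, and the summed level of all 14 was 8.93 to 9.60 CPM in WT and 6.30 to 9.24 CPM in KO. Cd4 alone gave 4.58 to 6.09 CPM of this sum in each library. All 6 tested genes had negative log2 fold changes (median -0.209), whereas 4 were positive without KO library 2. The T cell genes Cd3e and Cd3g had at most 7 counts in any library. Markers of red blood cells summed to 109 to 149 CPM in WT and 98.3 to 247 CPM in KO, those of oligodendrocytes to 3962 to 4370 and 3371 to 4068 CPM, and those of the choroid plexus to 310 to 364 and 368 to 441 CPM. Neuronal markers summed to 4174 to 4325 CPM in WT and 4039 to 4259 CPM in KO, astrocyte markers to 4539 to 4767 and 4400 to 4596 CPM, and vascular markers to 398 to 405 and 366 to 421 CPM. Their part in the differences of P2ry12, Siglech and Gpr34 was not tested.

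Genes outside the microglia, complement and leukocyte lists were ranked by how closely their log2 CPM followed the mean profile of the 9 genes over the 6 libraries. That profile, in centred log2 CPM, ran -0.15, 0.19 and -0.04 in WT and -0.05, -0.13 and 0.18 in KO. Among 13795 protein-coding genes with a mean of at least 1 CPM, the closest were Erbb2 (Pearson r = 0.995), Trim30a (0.991), Sox7 (0.990), Rnf213 (0.989) and Trim34a (0.988). Rnf213, for example, had 97.0 CPM in WT library 2, 97.9 CPM in KO library 3 and between 54.5 and 64.3 CPM in the other 4. These correlations are a description over 6 libraries. The 23 other microglia genes had a median r of 0.62 with the same profile, against -0.01 for all 13795 genes.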

How the data were processed

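Long RNA of mouse brain was measured in 3 WT and 3 KO libraries. The authors deposited 1 table of raw read counts per gene for each library, and the submitters' processing notes name cutadapt 1.9.1 and STAR 2.7.0f without their roles. The genome build and annotation are not given in the sources used here; the 55450 gene identifiers match GENCODE M21 (GRCm38), which gave names, positions and lengths. The last column held 94.6% to 94.8% of stranded counts and was used. Per the file headers, reads that were unmapped, multimapping, in no gene or ambiguous are listed apart, and these were left out of library sizes.

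In R 4.3.3, edgeR 4.0.16 (filterByExpr, TMM, quasi-likelihood test, genotype alone) was fitted to all genes, with Benjamini-Hochberg adjustment over 21237 genes. SE is the log2 fold change divided by the square root of F, and intervals use the fit's degrees of freedom. CPM used TMM-scaled library sizes. Pairs of libraries in a group differed by more than sampling noise. Alternatives were the unstranded column, DESeq2 1.42.0 size factors or its Wald test, total counts, no filter, a mean count of at least 50, limma 3.58.1 (voom), the replicate block and leaving out each library.

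The 9 genes and all lists were chosen with earlier results of these data known. The 9 genes, direct partners such as Cx3cl1, Csf1, Il34, Tyrobp, C3, C4b, C1ra and C1s1, and, of each list, the 3 most abundant and the 2 with the smallest p-values could be named; others are said to be named after their values were seen. Some single genes of the lists stayed in every count but are not reported here. Promoter sequences are from RefSeq (GRCm38.p6).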

Additional observations from a re-analysis of the deposited data

How the results depend on the processing

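With 3 libraries per group and 82 to 153 counts per library, Trem2 and Aif1 have the widest intervals of the 9 genes. No filter on low counts gave 298 of 37245 genes tested and 1 of the 9 identity and C1q genes (P2ry12). The DESeq2 Wald test gave 25 of 21237 genes tested and 1 of the 9 (P2ry12). All other alternatives gave 0 of the 9. No filter also gave 4 of 20 activated genes, 4 of 5 red blood cell genes and 1 gene each of the other microglia, signalling, complement component, complement receptor, astrocyte, oligodendrocyte and choroid plexus lists, and the DESeq2 Wald test 1 oligodendrocyte and 1 choroid plexus gene. The DESeq2 Wald test gave no adjusted p-value for Tmem119, Aif1 and Trem2. The replicate block gave 4 genes and 0 of the 9. Same-numbered WT and KO libraries had deviations correlated at 0.04, -0.031 and -0.058, and not every library correlated best with its own number. With 3 libraries per group, these correlations cannot tell whether same-numbered libraries are paired. Leaving out 1 library at a time gave 2 to 5 genes, the 5 without KO library 3, and 0 of the 9 throughout. Counts at an unadjusted p-value under 0.05 moved with single libraries. Without WT library 2, 4 of 17 signalling genes were higher, where 750 of all 21674 genes tested were. Without KO library 2, 3 of 11 complement components and 5 of 17 activated genes were higher, where 915 of all 21775 genes were. Without KO library 3, 3 of 10 complement receptors were lower, where 773 of all 21568 genes were.

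P2ry12 kept the sign of its log2 fold change under all alternatives, as did Cx3cr1, Trem2 and C1qc. Signs turned for 14 of the 45 single genes. Leaving out 1 library gave -0.081 to 0.20 for Tmem119, -0.15 to 0.03 for Csf1r, -0.037 to 0.10 for Aif1, -0.10 to 0.15 for C1qa, -0.11 to 0.17 for C1qb, -0.21 to 0.052 for P2ry13, -0.14 to 0.026 for Csf1, -0.15 to 0.25 for Tyrobp, -0.05 to 0.62 for C4b, -0.15 to 0.11 for Cbln1, -0.10 to 0.016 for C1ql3, -1.19 to 1.39 for Itgax, -0.57 to 1.46 for Clec7a and -0.82 to 0.57 for Siglec1. Total counts turned Tmem119 to -0.002 and limma-voom turned Siglec1 to -0.032; the cause was not tested.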

Other observations

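Neurons express relatives of C1q that share its globular domain, the cerebellins and C1q-like proteins, which act as synaptic organizers. None of the 9 relatives tested passed the adjusted threshold in edgeR, and 0 had an unadjusted p-value under 0.05. Cbln3 and Cbln1, genes of cerebellar granule cells, stood at 261 ± 44.9 and 133 ± 15 CPM in WT and 241 ± 27.3 and 134 ± 24.5 CPM in KO (SD, n = 3). C1ql3, expressed by excitatory neurons, stood at 43.4 ± 3.46 CPM in WT and 42.0 ± 2.09 CPM in KO. The median log2 fold change of the 9 relatives was 0.035.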
